A study of Homo sapiens with 4 samples.

Results

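The cluster described here is a group of miRNAs cut from 1 intron of CLCN5, the X-linked gene of a chloride and proton exchanger in the endosomes of the kidney proximal tubule. Its members are the 10 mature miRNAs hsa-miR-532-5p, hsa-miR-532-3p, hsa-miR-188-5p, hsa-miR-500a-5p, hsa-miR-500a-3p, hsa-miR-362-5p, hsa-miR-501-5p, hsa-miR-501-3p, hsa-miR-660-5p and hsa-miR-502-3p, out of 2656 in the count table. They were chosen by name as products of neighbouring hairpins, and the species prefix is mostly left out below. A further 6 rows, mostly scarcer arms, were described beside them as the other arms. They are the remaining arms of the members' hairpins and both arms of the neighbouring miR-500b hairpin.

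The cells were HEK293T, a transformed line of human embryonic kidney, with a landing pad, a site in the genome built to receive a transgene. CAG lines carried a pad with the synthetic CAG promoter and PGK lines a pad with the promoter of the phosphoglycerate kinase gene, and each group had 2 libraries. The lines were monoclonal, so promoter and clone cannot be told apart, and nothing in the labels says whether the replicates were separate cultures. The spread behind each p-value is that of these 4 samples alone and may be technical. The comparison asks which miRNAs differ between the 2 kinds of line.

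A miRNA is cut from a hairpin, first by Drosha in the nucleus and then by Dicer in the cytoplasm. Of the duplex left by Dicer, 1 strand is usually kept in an Argonaute protein, and it recognises targets mainly through its seed, bases 2 to 8 from the 5′ end. Strands from the left and right sides of the hairpin are called 5p and 3p. Hairpins that share a primary transcript are made together, but cutting, strand choice and decay can set the products apart.

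GENCODE release 29 (GRCh38) places 8 hairpins on the plus strand of the X chromosome within 11536 bp, from 50003148 to 50014683. They run in the order MIR532 (chrX:50003148-50003238), MIR188 (chrX:50003503-50003588), MIR500A (chrX:50008431-50008514), MIR362 (chrX:50008964-50009028), MIR501 (chrX:50009722-50009805), MIR500B (chrX:50010672-50010750), MIR660 (chrX:50013241-50013337) and MIR502 (chrX:50014598-50014683). Each lies inside 3 of the 9 annotated CLCN5 transcripts and overlaps no CLCN5 exon. All 8 fall in the same intron of 117001 bp, in the same direction as the gene. MIR532 and MIR188 are 264 bp apart, and a gap of 4842 bp separates them from MIR500A.

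The mature sequences of 9 of the 10 members, all but miR-660-5p, were matched by name in RefSeq (GRCh38.p14). They are shown 5′ to 3′ because near-identical members limit how reads can be assigned. Capitals mark the seed.
miR-532-5p: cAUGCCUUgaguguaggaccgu
miR-532-3p: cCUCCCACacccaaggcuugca
miR-188-5p: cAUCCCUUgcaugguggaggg
miR-500a-5p: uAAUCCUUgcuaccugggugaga
miR-362-5p: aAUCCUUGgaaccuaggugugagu
miR-501-5p: aAUCCUUUgucccugggugaga
miR-500a-3p: aUGCACCUgggcaaggauucug
miR-501-3p: aAUGCACCcgggcaaggauucu
miR-502-3p: aAUGCACCugggcaaggauuca
Only miR-501-3p and miR-502-3p among these 9 share a seed, AUGCACC. miR-500a-3p shares a stretch of 20 bases with miR-502-3p, and its listed 5′ end puts its seed at UGCACCU. The 5p strands of miR-500a, miR-362 and miR-501 all hold AUCCUU near the 5′ end, with 3 different seeds. One of the other arms, miR-500b-5p, has a listed sequence of 18 bases that lies wholly inside miR-500a-5p.
miR-500b-5p: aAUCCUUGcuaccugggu
A read of those 18 bases fits both, and how such reads were counted is not stated in any label or file header, so the levels of the miR-500 rows are uncertain to that extent.

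Libraries held 13780279 and 2845945 counts for CAG replicates 1 and 2, and 7927615 and 7331437 counts for PGK replicates 1 and 2. One read was worth 0.0777 to 0.324 CPM (counts set to 1 library size by TMM normalisation), and 3 reads, the limit that a count of 0 allows, 0.233 to 0.972 CPM. All 10 members passed the filter on low counts, as did 5 of the 6 other arms. The listed markers of blood cells (miR-142-3p, miR-142-5p, miR-223-3p, miR-451a), muscle (miR-133a-3p, miR-206) and liver (miR-122-5p) stood at 0 to 2.65 CPM in every library. At these low levels miR-133a-3p still differed, with 4 and 0 reads in CAG libraries and 20 and 14 reads in PGK libraries (edgeR adjusted p = 0.017). Another muscle miRNA, miR-1-3p, which was not on the list and is named after its values were seen, stood at 16.5 and 15.6 CPM in CAG libraries and 104 and 94.0 CPM in PGK libraries. The kidney and gut epithelial miR-192-5p stood at 3218 and 2747 CPM in CAG libraries, against 5594 and 5972 CPM in PGK libraries. miR-194-5p stood at 238 and 248 CPM in CAG libraries and 445 and 515 CPM in PGK libraries. miR-200b-3p, also lower in CAG lines, stood at 5.13 and 4.21 CPM in CAG libraries and 19.3 and 15.1 CPM in PGK libraries. miR-204-5p went the other way, with 22.1 and 20.1 CPM in CAG libraries and 7.88 and 4.74 CPM in PGK libraries. edgeR called each of these 4 epithelial markers, miR-1-3p and miR-133a-3p. Their part in the levels of the cluster was not tested.

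The most abundant product was miR-532-5p, cut from the first hairpin, with 67.9% of the summed level of the 10 members. The level of hsa-miR-532-5p was 3306 and 2943 CPM in CAG replicates 1 and 2, against 3690 and 3659 CPM in PGK replicates 1 and 2. Both CAG libraries were below both PGK libraries, and the CAG replicates differed more from each other than the PGK replicates did. Its mean of 3400 CPM over the 4 libraries ranked it 45 of 773 tested miRNAs. miR-188-5p is cut 264 bp further along and has been studied in mouse bone marrow for its part in the choice between bone and fat cells. hsa-miR-188-5p stood at 19.7 and 27.2 CPM in CAG libraries, against 23.7 and 25.1 CPM in PGK libraries. The CAG values enclosed the PGK values. Within a library, miR-532-5p had 108 to 168 reads for each read of miR-188-5p, so the neighbouring hairpins differed by over 100-fold in the level of their main strand.

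The 3p strands of 3 hairpins alike in sequence were among the next 4 in level. hsa-miR-500a-3p had 430 and 482 CPM in CAG libraries and 558 and 545 CPM in PGK libraries. hsa-miR-501-3p, which in rodent neurons has been tied to a glutamate receptor subunit, had 330 and 333 CPM in CAG libraries and 418 and 397 CPM in PGK libraries. hsa-miR-502-3p, from the last hairpin, had 168 and 192 CPM in CAG libraries and 205 and 228 CPM in PGK libraries. For each of the 3, both CAG libraries lay below both PGK libraries, as they did in 27.4% of the 773 tested miRNAs. The proportions of these 3 strands were similar between libraries: reads of miR-500a-3p over reads of miR-501-3p were 1.30 and 1.45 in CAG libraries and 1.34 and 1.37 in PGK libraries. The ratio of miR-500a-3p to miR-502-3p was 2.56 and 2.51 in CAG libraries and 2.73 and 2.38 in PGK libraries. With 20 shared bases between miR-500a-3p and miR-502-3p, the part that read assignment has in these proportions was not tested. Among pairs outside these 3 strands, miR-532-5p over miR-660-5p was also similar, at 16.1 and 16.2 in CAG libraries and 16.2 and 13.8 in PGK libraries. The ratio of miR-500a-5p to miR-501-5p varied more, from 0.341 to 0.520.

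hsa-miR-660-5p, studied in lung cancer cells as a repressor of MDM2, had 205 and 182 CPM in CAG libraries and 227 and 266 CPM in PGK libraries, again without overlap. hsa-miR-362-5p had 133 and 83.9 CPM in CAG libraries and 141 and 114 CPM in PGK libraries. Its groups overlapped. hsa-miR-532-3p, the scarcer strand of the first hairpin, had 78.6 and 96.6 CPM in CAG libraries and 90.8 and 93.4 CPM in PGK libraries, and the CAG pair enclosed the PGK pair. hsa-miR-501-5p had 77.6 and 41.2 CPM in CAG libraries and 66.6 and 45.7 CPM in PGK libraries. hsa-miR-500a-5p had 34.0 and 21.4 CPM in CAG libraries and 33.0 and 15.6 CPM in PGK libraries. In these last 2 strands the replicates of a group lay further apart than the group means.

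By mean over the 4 libraries the order was miR-532-5p (3400 CPM), miR-500a-3p (503.6), miR-501-3p (369), miR-660-5p (220), miR-502-3p (198), miR-362-5p (118), miR-532-3p (89.9), miR-501-5p (57.8), miR-500a-5p (26.0) and miR-188-5p (23.9 CPM). Neighbours in this order whose ranges over the libraries overlapped were miR-660-5p with miR-502-3p, miR-362-5p with miR-532-3p, and miR-500a-5p with miR-188-5p. The other neighbours did not overlap. The order did not follow position, since the second hairpin gave the scarcest of the 10 and the last 2 hairpins gave 220 and 198 CPM. Ligation of adapters favours some ends over others, so differences in level between miRNAs also carry the chemistry of the library kit, and its part was not tested.

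**Figure D1:**
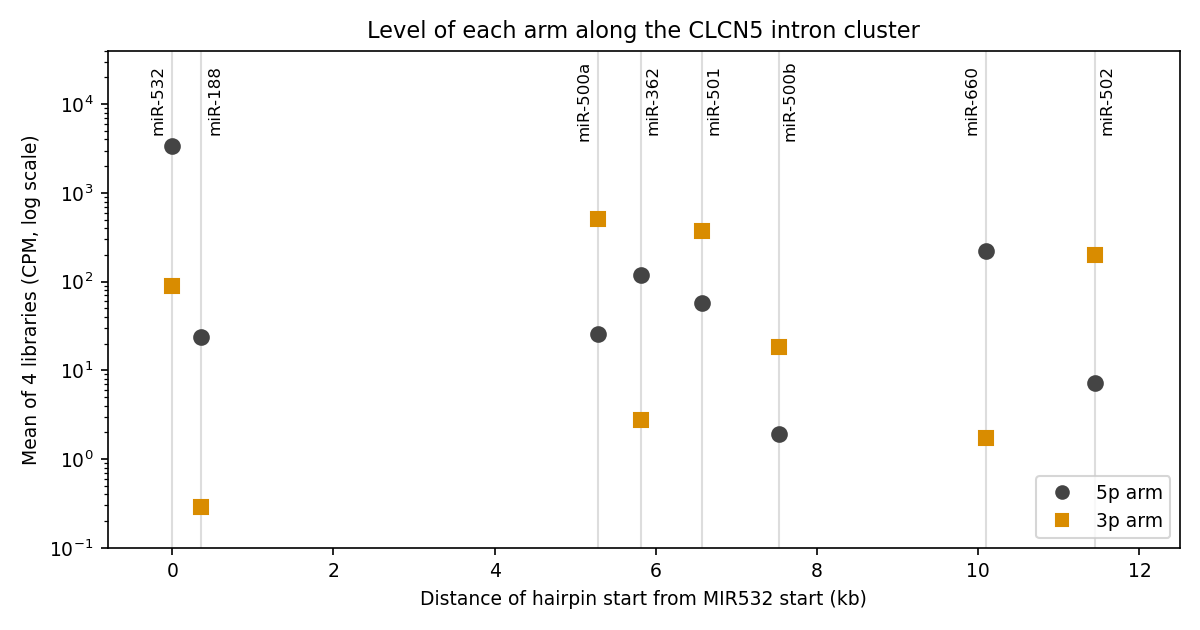
Mean level of each 5p (circle) and 3p (square) strand over the 4 libraries in CPM on a log scale, against the distance of its hairpin from the start of MIR532 in kb. miR-532-5p stands highest at 3400 CPM at the start of the cluster, and miR-188-3p lowest, beside it.

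**Figure D2:**
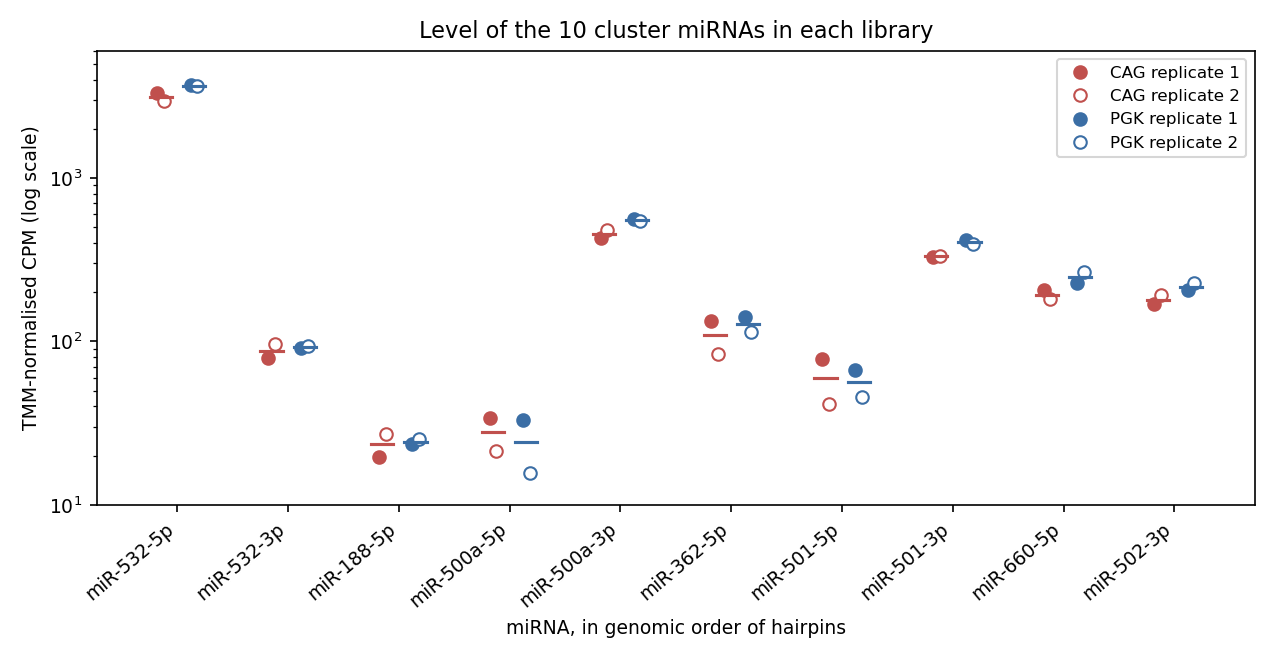
TMM-normalised CPM (log scale) of the 10 members in CAG and PGK libraries; filled points are replicate 1, open points replicate 2 and bars the group means (n = 2). CAG points lie below PGK points for miR-532-5p, miR-500a-3p, miR-501-3p, miR-660-5p and miR-502-3p, and overlap them for the other 5. Over all 773 tested miRNAs, 27.4% had both CAG libraries below both PGK libraries.

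Between CAG and PGK lines no member was called by the edgeR quasi-likelihood test at an adjusted p under 0.05, and none had an unadjusted p under 0.05; DESeq2 and limma-voom also called none, again with 0 at an unadjusted p under 0.05. Over all 773 tested miRNAs 14.2% were called, 8.15% higher and 6.08% lower in CAG lines. That background rests on both PGK libraries: the 110 calls became 19 without PGK replicate 1 and 16 without PGK replicate 2. For the members the fits gave 0 calls in each case.

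The log2 fold changes of the members were small, from -0.35 to 0.24 with a median of -0.22, against a median of -0.0042 over all tested miRNAs. They were below 0 for 8 of 10 members and for 50.2% of all tested miRNAs. In 5 of 10 members both CAG libraries lay below both PGK libraries, as they did in 27.4% of all tested miRNAs. Of the members, 0 lay above, as 29.8% of all tested miRNAs did. With library size scaling alone the 5 became 4, because miR-502-3p then overlapped. The members lie in the same annotated intron, were read in the same libraries and are not independent readings, so these shares are a description. The summed level of the 10 members was 4783 and 4401 CPM in CAG libraries, against 5453 and 5388 CPM in PGK libraries.

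miR-660-5p had the lowest value, a log2 fold change of -0.35 (SE 0.19; 95% interval -0.76 to 0.07; n = 2 per group; edgeR adjusted p = 0.260). miR-501-3p stood at -0.30 (SE 0.18; -0.69 to 0.09; edgeR adjusted p = 0.299) and miR-500a-3p at -0.28 (SE 0.18; -0.67 to 0.12; edgeR adjusted p = 0.334). For miR-502-3p it was -0.27 (SE 0.19; -0.68 to 0.14) and for miR-532-5p -0.23 (SE 0.16; -0.59 to 0.12). On the fold scale the interval of miR-532-5p ran from 0.666 to 1.09, so a level in CAG lines below 0.666 of that in PGK lines lies outside it. miR-362-5p, studied in several tumours as a repressor of CYLD, had a value of -0.21 (SE 0.24). The values of miR-188-5p and miR-532-3p were -0.10 (SE 0.25) and -0.08 (SE 0.20).

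The only 2 members above 0 were miR-500a-5p at 0.24 (SE 0.35; -0.55 to 1.03; edgeR adjusted p = 0.717) and miR-501-5p at 0.12 (SE 0.30; -0.55 to 0.80; edgeR adjusted p = 0.826). Their direction depended on single libraries. Without PGK replicate 2 the values were -0.23 for miR-500a-5p and -0.15 for miR-501-5p, and without CAG replicate 1 they were -0.19 for miR-500a-5p and -0.45 for miR-501-5p. miR-362-5p turned to 0.07 without CAG replicate 2. miR-188-5p and miR-532-3p turned to 0.17 and 0.07 without CAG replicate 1. The 5 members without overlap ran from -0.47 to -0.15 in these fits; groups that do not overlap cannot change sign when a library is left out, so this is no sign of stability.

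**Figure D3:**
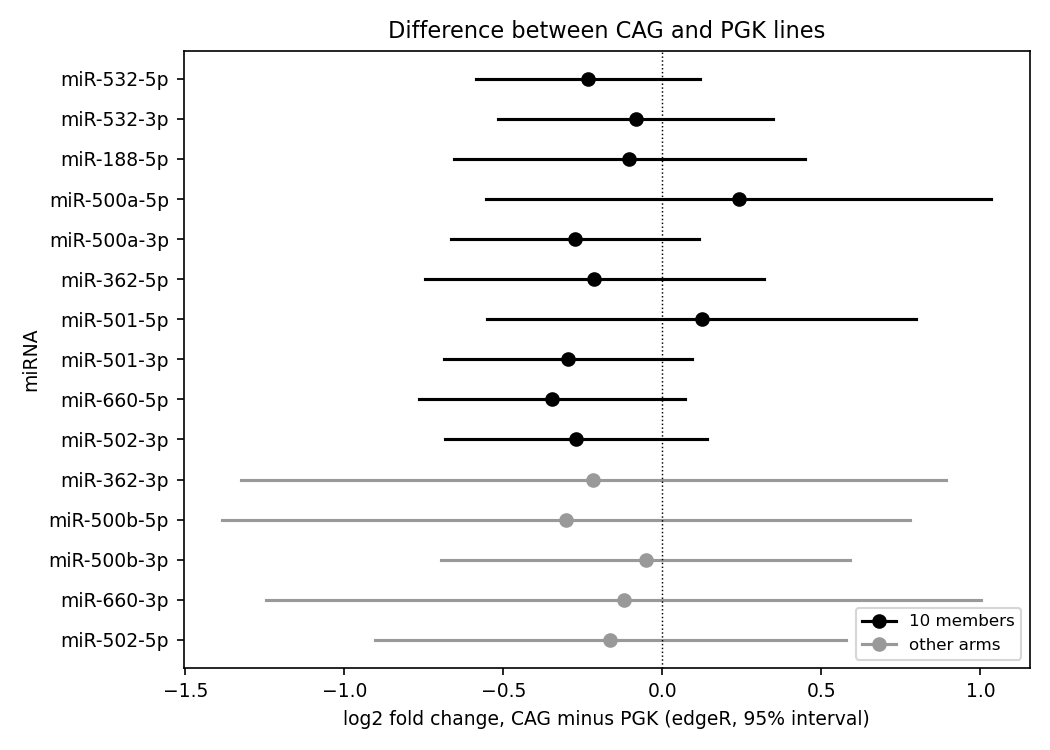
Log2 fold change, CAG minus PGK, with the 95% interval from the edgeR fit over all miRNAs, for the 10 members (black) and the 5 other arms tested (grey). Each interval includes 0; miR-660-5p lies lowest at -0.35 and miR-500a-5p highest at 0.24.

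Seed families hold the same reads, summed by seed. The seeds of the 9 matched members made 8 families. The unmatched member, miR-660-5p, has no family among them, here or in the alternative runs. edgeR called 0 of the 8 families (0 at an unadjusted p under 0.05; 0 by DESeq2 and by limma-voom), against 10.4% of 642 tested families. AUGCACC, whose counts were exactly the sum of miR-501-3p and miR-502-3p, had 497 and 513 CPM in CAG libraries and 630 and 633 CPM in PGK libraries. Its groups did not overlap, and its log2 fold change of -0.32 (SE 0.16; 95% interval -0.69 to 0.05; edgeR adjusted p = 0.240) had the lowest adjusted p of the 8. miR-500a-3p made up the family UGCACCU alone, with -0.31 (SE 0.16). The family AUCCUUG joined miR-362-5p and miR-500b-5p, within 1 read of their sum, and stood at -0.24 (SE 0.25).

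Every hairpin of the cluster had a dominant strand, the same in all 4 libraries, and the side differed along the cluster. The 5p strand gave 97.5% of reads of miR-532, 98.7% of miR-188, 97.9% of miR-362 and 99.1% of miR-660, over the 4 libraries. The 3p strand gave 94.6% of reads of miR-500a, 85.2% of miR-501, 91.2% of miR-500b and 96.1% of miR-502. The 4 hairpins of the second kind are the ones whose listed 3p sequence holds GCACC. Strand shares compare products with different ends, and the part of adapter ligation in them was not tested.

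For miR-532, reads of 5p over reads of 3p were 42.1 and 30.5 in CAG libraries and 40.6 and 39.2 in PGK libraries. For miR-500a, reads of 3p over reads of 5p were 12.6 and 22.5 in CAG libraries and 16.9 and 34.9 in PGK libraries. For miR-501 this ratio was 4.25 and 8.09 in CAG libraries and 6.27 and 8.67 in PGK libraries. Groups overlapped for all 8 hairpins. The change of the log2 ratio of 5p to 3p between CAG and PGK lines was 0.53 for miR-500a (SE 0.36; 95% interval -0.18 to 1.23; limma adjusted p = 0.911) and 0.33 for miR-501 (SE 0.30; -0.27 to 0.93; limma adjusted p = 0.973). The value of miR-500a rested on single libraries, with 0.0048 without PGK replicate 2, 0.11 without CAG replicate 1, 0.94 without CAG replicate 2 and 1.05 without PGK replicate 1. miR-532 had the narrowest interval, -0.71 to 0.40 around -0.16. limma called 0 of the 7 cluster hairpins with both arms tested (0 at an unadjusted p under 0.05; 0 called by edgeR's diffSpliceDGE), against 0.562% of 178 hairpins. miR-188 was not tested, since its 3p strand had 9 reads over all libraries.

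**Figure D4:**
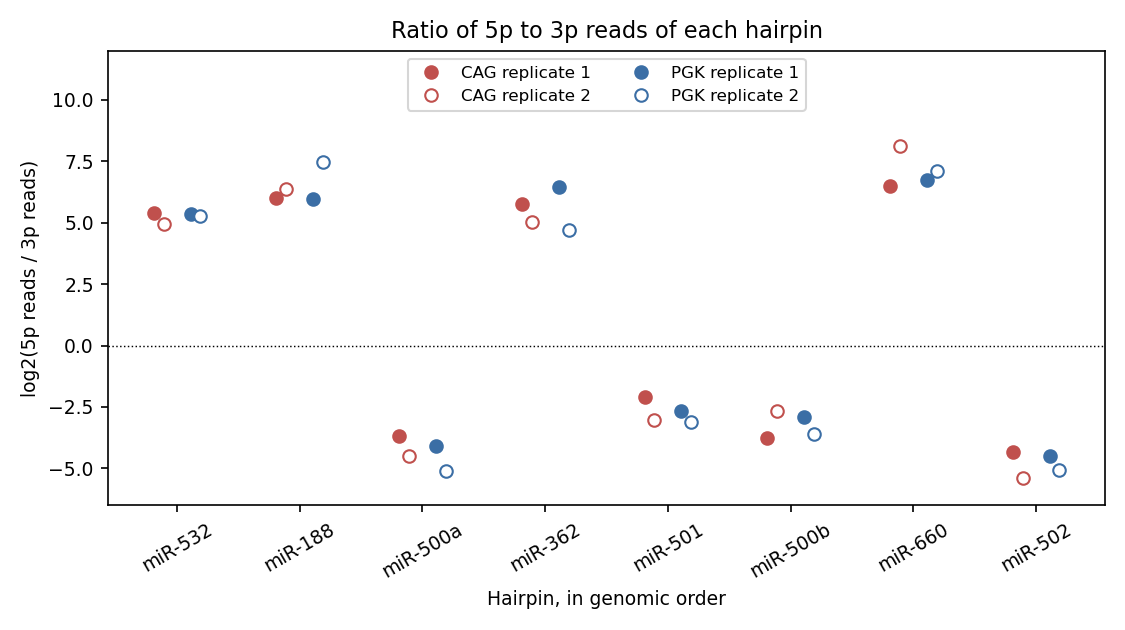
Log2 ratio of 5p to 3p reads of each hairpin, in genomic order, in CAG and PGK libraries; filled points are replicate 1 and open points replicate 2. Values above 0 are hairpins with more 5p reads (miR-532, miR-188, miR-362, miR-660) and values below 0 those with more 3p reads; the groups overlap for all 8.

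Within each group, the replicates differed more for the 3 members that hold AUCCUU than for the other 7, a grouping made after their values were seen. The other arms did not divide in this way. Of those that hold AUCCUU, miR-502-5p was higher in replicate 1 of both groups. miR-500b-5p had 1.63 and 1.94 CPM in CAG and 2.63 and 1.53 CPM in PGK. miR-500b-3p lacks AUCCUU and had 22.2 and 12.3 CPM in CAG and 19.9 and 18.4 CPM in PGK. Replicate 1 over replicate 2 of miR-500a-5p was 1.59 in CAG (95% exact interval 1.23 to 2.09) and 2.12 in PGK (1.69 to 2.66). For miR-501-5p it was 1.88 in CAG (1.57 to 2.29) and 1.46 in PGK (1.27 to 1.68). For miR-362-5p it was 1.59 in CAG (1.39 to 1.82) and 1.24 in PGK (1.13 to 1.36). The intervals cover counting error only. If PCR copies of a molecule were counted as separate reads, which no label or file header states, the intervals are too narrow even for that. All 6 intervals exclude 1, as do 9 of the 14 of the other members, whose ratios lay between 0.725 and 1.13.

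In both groups the library numbered 1 was the higher one for these 3 strands. The 3p strands of the same hairpins, miR-500a-3p and miR-501-3p, had ratios of 0.893 and 0.992 in CAG and 1.02 and 1.05 in PGK. Among the 358 tested miRNAs between 10 and 1000 CPM, replicates differed by a median of 0.23 (CAG) and 0.21 (PGK) on the log2 scale, and 10 in 100 differed by more than 0.70 (CAG) or 0.61 (PGK). miR-501-5p in CAG, at 0.91, and miR-500a-5p in PGK, at 1.08, were beyond those limits. CAG replicate 1 was the deepest and CAG replicate 2 the shallowest library, while the PGK libraries were of like depth; the part of depth was not tested.

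**Figure D5:**
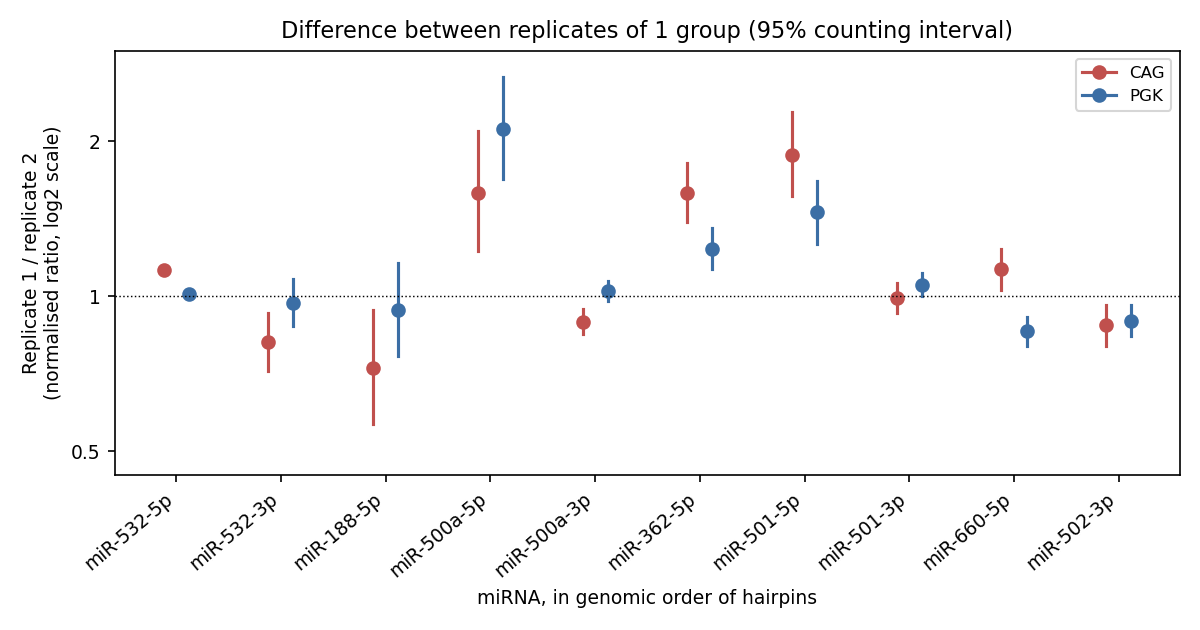
Replicate 1 over replicate 2 of the normalised level (log2 scale) of each member within CAG and within PGK, with 95% exact intervals for counting error. miR-500a-5p, miR-362-5p and miR-501-5p lie above 1 in both groups, with ratios from 1.24 to 2.12.

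The other arms were scarce. miR-500b-3p was the most abundant, at 22.2 and 12.3 CPM in CAG libraries and 19.9 and 18.4 CPM in PGK libraries. miR-502-5p followed at 8.31 and 4.54 CPM in CAG libraries and 9.13 and 6.83 CPM in PGK libraries. miR-362-3p, miR-500b-5p and miR-660-3p averaged 1.74 to 2.76 CPM, and miR-188-3p had 4 and 1 reads in CAG libraries and 3 and 1 reads in PGK libraries. Of the 5 tested, edgeR called 0 (0 at an unadjusted p under 0.05), with log2 fold changes from -0.30 to -0.05, and the groups overlapped for all 5.

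Of the listed miRNAs from elsewhere on the X chromosome, 43 of 59 were tested. Of these 43, edgeR called 7 higher and 5 lower in CAG lines, against 8.15% and 6.08% of all 773 tested miRNAs. The higher ones were both strands of miR-105 and of miR-767, miR-651-5p (log2 fold change 4.67), miR-504-5p (1.10) and miR-361-3p (0.87). Strands of the same hairpin are not independent readings. miR-105-5p, for example, had 720 and 583 CPM in CAG libraries and 0.626 and 0.418 CPM in PGK libraries. Lower levels were called for miR-221-3p (-0.74), miR-424-5p (-0.75), miR-503-5p (-0.85), miR-452-5p (-2.84) and miR-224-5p (-3.14). Without PGK replicate 1, and likewise without PGK replicate 2, the calls of miR-504-5p, miR-361-3p, miR-503-5p, miR-424-5p and miR-221-3p were lost, leaving 7 of the 12. Of the most abundant X-linked miRNAs besides miR-221-3p, miR-222-3p, miR-221-5p and miR-374b-5p stood at -0.67, -0.30 and -0.12 and were not called. The interval of miR-532-5p, -0.59 to 0.12, lies above the values of the 5 lower X-linked miRNAs, which are named because they were called. It overlaps the intervals of miR-221-3p (-1.08 to -0.40), miR-424-5p (-1.18 to -0.32) and miR-503-5p (-1.32 to -0.38). Those of miR-452-5p and miR-224-5p lie wholly below it. The interval of miR-660-5p, -0.76 to 0.07, holds the values of miR-221-3p and miR-424-5p. Whether the change of any member differs from theirs was not tested.

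By distance between profiles over the 4 libraries, the miRNAs most like the median of the members were miR-30c-2-3p (distance 0.05), miR-151a-3p (0.06), miR-183-5p (0.11), miR-548e-3p (0.11) and miR-25-3p (0.12). The median distance of the 215 candidates was 0.52. The distance is Euclidean, on log2 CPM centred on each miRNA's own mean. miR-30c-2-3p, the nearest, had 124 and 121 CPM in CAG libraries and 155 and 145 CPM in PGK libraries. edgeR called none of these 5 (0 at an unadjusted p under 0.05), and their log2 fold changes ran from -0.31 to -0.17. They were picked for their likeness to the members in these same libraries, so such values follow largely from the choice. With 4 libraries, such likeness says only that the levels differed by like amounts in the same libraries.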

How the data were processed

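Small RNA libraries from HEK293T cells were prepared with a NEBNext kit, per the labels' protocols. The authors deposited whole-number counts per mature miRNA (2656) and per seed family (2094), without pooling. No label or file header gives the trimming, the aligner, the rule for shared reads, the annotation or the genome build.

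The main test was edgeR 4.0.16 in R 4.3.3 (quasi-likelihood, robust, group only) on the deposited counts, with TMM factors and the low-count filter by group (minimum count 10, total 15). It kept 773 miRNAs, with at least 99.97% of counts in each library, and 642 families. P-values are two-sided, adjusted by Benjamini-Hochberg over the whole table, with a threshold of 0.05. Intervals of fold changes are 95% intervals from the same fit, and SDs or SEs rest on n = 2 per group. Arm ratios, log2((5p + 0.5)/(3p + 0.5)), were tested with limma 3.58.1 over 178 names with both arms tested. Replicates differed beyond counting noise (chi-square per degree of freedom 125 in CAG and 66.1 in PGK). The scripts were tested on simulated data with planted changes larger than those of any member. That run does not measure the power to detect changes as small as those of the members. Alternatives used RLE, upper-quartile and library size scaling, 2 other filters, DESeq2 1.42.0, limma-voom, a replicate block, each library left out, a pseudocount of 5 and diffSpliceDGE.

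Members and lists were chosen with earlier results of these data known. The text names all members, the other arms, and X-linked miRNAs of a list that were called or among its 4 most abundant. It also names the 5 profiles nearest to the members with a mean of at least 100 CPM. Matplotlib 3.10.9 drew the figures.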

Additional observations from a re-analysis of the deposited data

How the results depend on the processing

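With 2 libraries per group, intervals reached 0.35 to 0.79 on either side of the log2 fold change of a member. An estimated change smaller than its own reach has an interval that includes 0. The power to detect a true change was not computed. Larger changes could also be missed, since the intervals are not adjusted for the number of tests and the calls are. For example, miR-222-3p, at -0.67 with 0.45 on either side, was not called. No member, member family or cluster arm ratio was called under any alternative run (0 in each). The count over all miRNAs, 110, became 63 with the replicate block, and ran from 16 to 162 when 1 library was left out, with the lone library of a group assumed to vary like the other pair. Same-numbered libraries had deviations correlated at 0.04 across 436 miRNAs, and the numbers share no stated source; the block changed no call of the members. Over all hairpins 1 arm ratio was called, 2 with a pseudocount of 5, 0 with diffSpliceDGE, and 1 to 3 with a library left out.

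Of the 120 member fold changes under alternatives, 113 kept their direction. The 7 that did not came from leaving out 1 library, where miR-500a-5p ran from -0.23 to 0.85, miR-501-5p from -0.45 to 0.47, miR-362-5p from -0.60 to 0.067, miR-188-5p from -0.30 to 0.17 and miR-532-3p from -0.22 to 0.075. Arm ratios turned more often. With a pseudocount of 5, miR-660 stood at -0.20 and miR-502 at 0.037; with diffSpliceDGE, miR-362 stood at 0.0020, miR-500b at -0.20, miR-660 at -0.17 and miR-502 at 0.061. With 1 library left out, they ran from -1.06 to 0.63 (miR-362), 0.0048 to 1.05 (miR-500a), -0.53 to 0.64 (miR-500b), -0.13 to 0.79 (miR-501), -0.59 to 0.43 (miR-502), -0.39 to 0.077 (miR-532) and -0.39 to 0.94 (miR-660). The scarcer strands of miR-362, miR-500b and miR-660 had 84, 59 and 62 reads over all libraries. The cause was not tested. Counting members without overlap under other scalings, and X-linked calls under each alternative, was chosen after seeing the data.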
